A study of Mus musculus with 12 samples.

Results

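The 10 genes of the Notch pathway described here were followed across cells grown from 3 mouse tissues: the receptors Notch1, Notch2 and Notch3, the ligands Jag1, Jag2 and Dll1, and the target genes Hes1, Hey1, Hey2 and Heyl. They were chosen by symbol, taking every probe entry that the platform annotation gives to these names. This gave 12 entries for 10 genes, with 2 entries each for Notch2 and Hey2, out of 45281 entries and 18889 named genes on the arrays. The study compared MSC-like cells derived from kidney, MSC-like cells derived from heart (labelled cardiac) and mesenchymal stem cells (MSC) from bone marrow, with 4 arrays of each, on single-colour Illumina bead arrays. MSC are stromal cells that grow on plastic and are able to give rise to fat, cartilage and bone. No treatment or genotype is named for any group, and the labels do not state mouse strain, age or passage. The 4 samples of a tissue are called biological replicates, without mention of animals or litters, so each p-value is set against the spread of these samples alone, which may be technical.

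Notch receptors are membrane proteins that are cleaved when a ligand of the Jagged or Delta-like family on a neighbouring cell binds them. The freed intracellular domain enters the nucleus, joins the DNA-binding protein Rbpj and switches on target genes, of which the Hes and Hey families of basic helix-loop-helix repressors are the best known. In connective and vascular tissues the pathway is known for its part in arterial identity, in the coating of vessels by smooth muscle cells and pericytes, and in holding back differentiation of mesenchymal progenitors.

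Mean raw signal was 754 to 1066 per array, and 18635 to 19792 entries per array were detected, meaning that the deposited detection value exceeded 0.95. Of the listed markers, the epithelial genes Epcam, Krt18, Pax8, Pax2 and Lhx1 and the cardiomyocyte genes Myh6, Myl7 and Actc1 were detected on 0 arrays. However, 3 of 8 epithelial markers were detected throughout kidney, 2 throughout heart and 3 throughout bone marrow. Krt8 and Krt19 were detected on all arrays, and Cdh1 on 4 kidney, 3 heart and 4 bone marrow arrays. Of 7 cardiomyocyte markers with an entry, Ttn was detected on all kidney and heart arrays and on 3 bone marrow arrays. Tnni3, Nppa and Ryr2 were each detected on at most 1 array of a tissue. Of 8 stromal markers, 7 were detected on all arrays of each tissue. Levels below are normalized log2 signals, and each is compared only with the same probe on other arrays. Changes are log2 differences ± SE from limma, fitted to 10797 detected genes, with Benjamini-Hochberg adjusted p-values over all of them. A gene is called higher or lower when the adjusted p is under 0.05. Intervals are 95% confidence intervals, and the number of arrays limits their precision.

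The kidney-derived cells stood apart in both Hey genes. Hey1 was 3.19-fold higher in kidney-derived than in bone marrow cells, and Hey2 was detected on all 4 kidney arrays and on 0 of the 8 heart and bone marrow arrays. Notch1 was higher in kidney-derived cells by a smaller margin, and Hes1 was slightly lower. Of the 10 genes, 6 passed the detection filter (an entry detected on at least 4 of 12 arrays) and were tested: Notch1, Notch3, Dll1, Hes1, Hey1 and Hey2. In kidney minus bone marrow, 4 of these 6 were called, 3 higher and 1 lower, where 44.2% of all tested genes were called (19.9% higher and 24.3% lower). In kidney minus heart the count was also 4 of 6, 3 higher and 1 lower, where 49% of all tested genes were called (24.9% higher and 24.1% lower). In heart minus bone marrow limma called 0 of 6, with 0 at an unadjusted p under 0.05, where 56% of all tested genes were called. Hey2 entered the tests through its kidney arrays alone and so had to differ in both kidney comparisons. Without it, 3 of 5 genes were called in each kidney comparison, and the median log2 change of the 5 was 0.28 in kidney minus bone marrow, 0.03 in kidney minus heart and 0.00 in heart minus bone marrow, against -0.04, 0.02 and -0.03 over all tested genes. The kidney comparisons share their kidney arrays, so their calls are not independent of each other. The tissues' arrays did not overlap for 4 of 6 genes in kidney minus bone marrow, 0 of 6 in heart minus bone marrow and 4 of 6 in kidney minus heart. This held for 38%, 50.2% and 47% of all tested genes. Hey2 is in both counts of 4, where its place was likewise set by the filter. By limma's F test across the 3 tissues, Hey1, Hes1 and Notch1 differed, as did Hey2 for the same reason of the filter. Notch3 and Dll1 did not pass, where 68.3% of all tested genes passed.

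**Figure D1:**
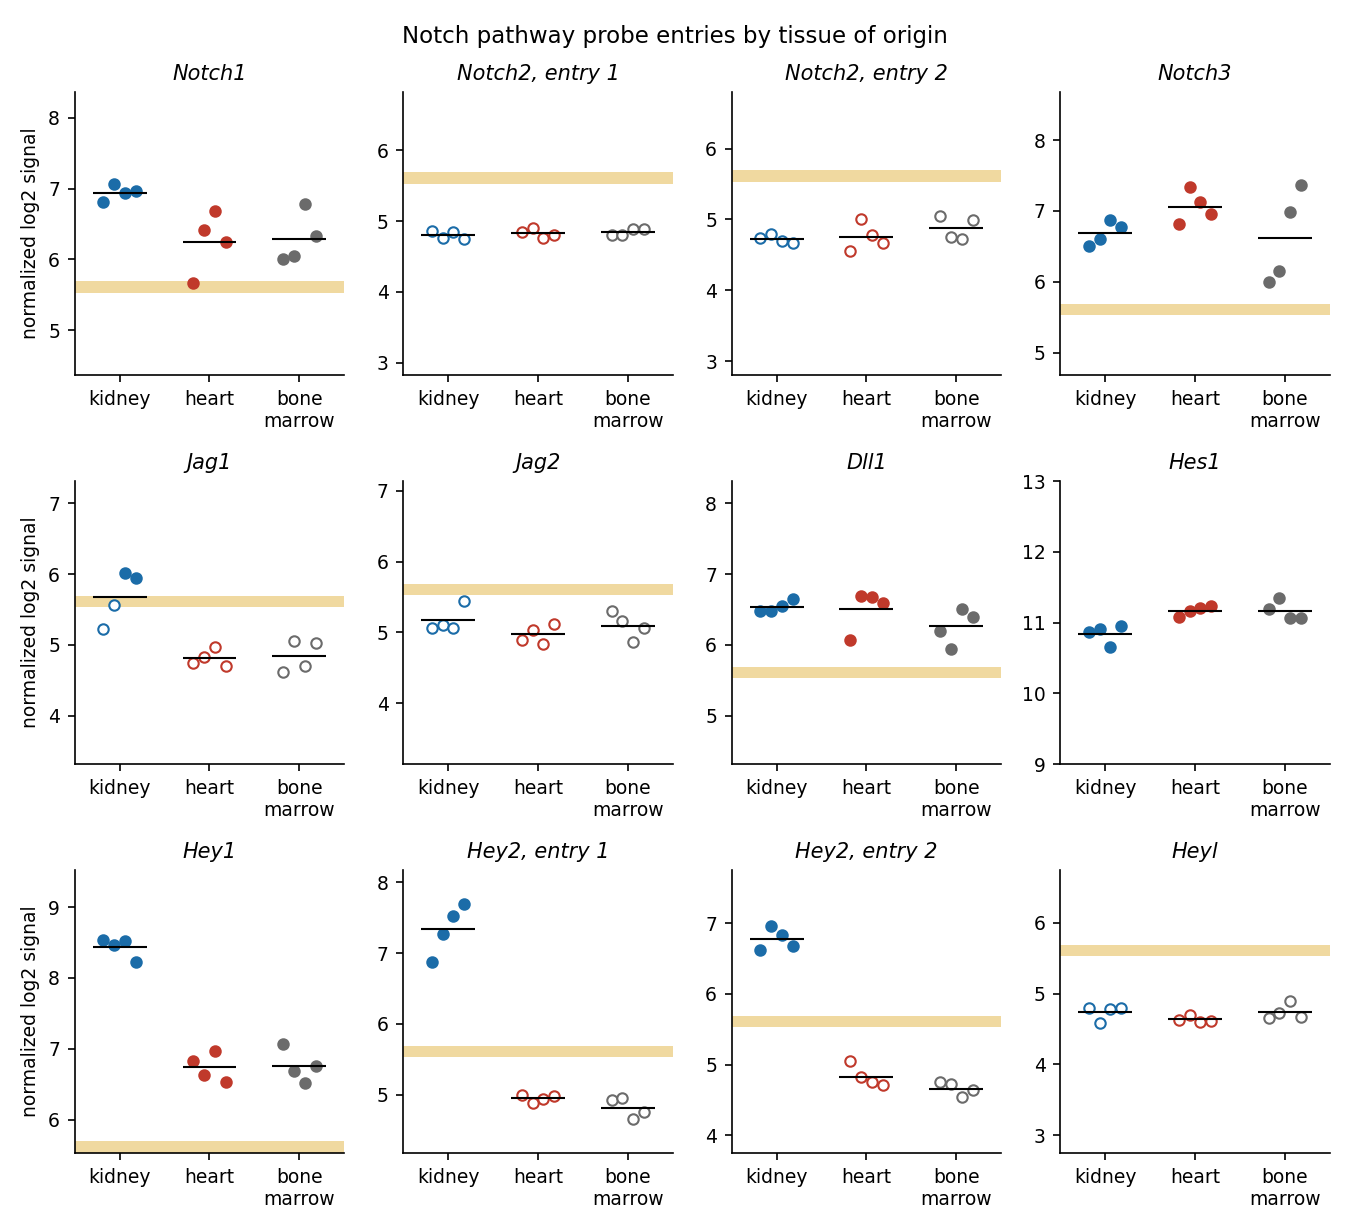
Normalized log2 signal of the Notch genes on each array, by tissue of origin (kidney, heart, bone marrow; 4 arrays each), with a filled point for an array on which the entry was detected, an open point where it was not, a line for the mean and a shaded band for the arrays' detection floors (5.53 to 5.69). Hey1 and Hey2 sit higher on every kidney array than on any heart or bone marrow array, whereas Dll1 and Notch3 overlap between tissues.

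Hey2 encodes a repressor of the Hairy-related family that is known for its part in heart and artery development. Its start region is shown because Hey2 was detected on every array of 1 tissue and on none of the others, and because Rbpj, through which Notch acts, binds DNA with a short core. The sequence is the minus strand of chromosome 10, from RefSeq on build GRCm38.p6, at chr10:30842754-30843033. It runs 5′ to 3′ from 250 bases before to 30 bases after the annotated start. Capitals mark the letters TGGGAA, the Rbpj core searched here on both strands (TTCCCA is its reverse complement).
Hey2 start region: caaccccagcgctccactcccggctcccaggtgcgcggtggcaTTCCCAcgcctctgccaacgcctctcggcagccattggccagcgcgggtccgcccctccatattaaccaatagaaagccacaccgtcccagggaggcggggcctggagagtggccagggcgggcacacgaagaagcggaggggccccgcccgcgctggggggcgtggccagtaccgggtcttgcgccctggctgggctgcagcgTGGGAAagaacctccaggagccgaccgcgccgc

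The Hey2 window held the core at 2 places, 1 on the opposite strand at -207 to -202 and 1 on the strand shown at -3 to 3, with positions counted from the start site and no position 0. Of the 10 genes, 7 had a start region in the RefSeq table, with 8 start sites in all, and Hes1, Hey1 and Heyl were not among them. The windows of the other 6 genes, Notch1, Notch2, Notch3, Jag1, Jag2 and Dll1, held 0 cores. Of 32851 windows of the same length in the table, 23.8% held at least 1 core on either strand. The N box, CACNAG, a sequence bound by Hes proteins, was found in the windows of Notch1, Notch2, Notch3 and Dll1, and in 40.2% of all windows. The E box CACGTG was found in 0 of the members' windows and in 6.79% of all windows. G and C made up 71.4% of the Hey2 window, 56.8% to 86.4% of the members' windows and a median of 52.5% over all windows. A match of letters is a description and does not show that a factor binds there.

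Notch1, a receptor found in many cell types, read 6.81, 7.06, 6.94 and 6.96 on the kidney arrays, 5.67, 6.41, 6.68 and 6.24 on the heart arrays, and 6.0, 6.05, 6.78 and 6.33 on the bone marrow arrays. All kidney arrays lay above all others, but by a narrow margin, since bone marrow replicate 3 reached 6.78 and kidney replicate 1 lay at 6.81. The mean was 6.94 ± 0.10 in kidney-derived cells, 6.25 ± 0.42 in heart-derived cells and 6.29 ± 0.36 in bone marrow MSC (SD, n = 4 each), with the smallest spread among the kidney arrays. The change was 0.65 ± 0.21 in kidney minus bone marrow, or 1.57-fold (limma adjusted p = 0.0146). It was 0.70 ± 0.21 in kidney minus heart, or 1.62-fold (limma adjusted p = 0.00845). Heart and bone marrow cells differed by -0.04, with an interval of -0.48 to 0.39 (limma adjusted p = 0.876). Without background correction the Notch1 difference was still called but was only 0.30 in kidney minus bone marrow and 0.32 in kidney minus heart.

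Notch3, a receptor known from vascular smooth muscle cells and pericytes, read 6.50, 6.61, 6.87 and 6.77 on the kidney arrays, 6.82, 7.34, 7.12 and 6.95 on the heart arrays, and 6.0, 6.15, 6.98 and 7.36 on the bone marrow arrays. The bone marrow arrays were split, with replicates 1 and 2 below every kidney and heart array and replicate 4 above all of them. Means were 6.69 ± 0.16, 7.06 ± 0.23 and 6.62 ± 0.65 in kidney, heart and bone marrow cells (SD, n = 4 each). No pair of tissues passed the test. The change was 0.06 in kidney minus bone marrow (interval -0.43 to 0.56), 0.44 in heart minus bone marrow (interval -0.06 to 0.93) and -0.37 in kidney minus heart (interval -0.87 to 0.12). The heart minus bone marrow interval reaches a fold of 1.91, so these values do not show that the tissues were alike. When bone marrow replicate 4 was left out, the heart minus bone marrow change was 0.68 and passed (limma adjusted p = 0.00978).

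Notch2, a receptor closely related to Notch1, was not well above background at either of its 2 entries on any array. Raw signal at the first entry was 118.9 to 125.2 on kidney arrays, 115.8 to 132.5 on heart arrays and 114.8 to 128.4 on bone marrow arrays, against array medians of at least 129.8. The second entry ranged from 113.3 to 121.9, from 106.2 to 138 and from 112.3 to 133.4 in kidney, heart and bone marrow. A signal near background does not show that a gene is silent, since the entries of the widely used genes Adam10 and Ctbp1 were also undetected on all 12 arrays.

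Among the ligands, Dll1, a Delta-like ligand, was detected on all 12 arrays at low level. It read 6.48, 6.48, 6.55 and 6.65 on the kidney arrays, 6.07, 6.69, 6.67 and 6.59 on the heart arrays, and 6.20, 5.94, 6.51 and 6.39 on the bone marrow arrays. The 3 tissues overlapped, and heart replicate 1 and bone marrow replicates 1 and 2, which were also the lowest arrays of their tissues for Notch1 and Notch3, were the 3 lowest for Dll1. The change was 0.28 in kidney minus bone marrow (interval -0.09 to 0.64, limma adjusted p = 0.212), 0.24 in heart minus bone marrow (interval -0.12 to 0.61, 0.246) and 0.03 in kidney minus heart (interval -0.33 to 0.39, 0.899).

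Jag1, a ligand known from endothelial cells and from signals to smooth muscle, was detected on 2 arrays, kidney replicates 3 and 4. It therefore did not pass the detection filter. Its normalized signal was 5.22, 5.56, 6.01 and 5.94 on the kidney arrays, 4.75, 4.83, 4.97 and 4.70 on the heart arrays, and 4.62, 5.05, 4.70 and 5.02 on the bone marrow arrays. The 4 kidney arrays lay above all 8 others, and the highest 2 were those at which it was detected. Most of these values lie below the detection floor, the lowest normalized signal of any detected entry on an array, so neither a change nor a fold is given. Jag2, a second Jagged ligand, was undetected on all 12 arrays, with raw signal of 133.7 to 156.8 on kidney arrays, 121.2 to 139.5 on heart arrays and 119.6 to 136.5 on bone marrow arrays.

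Among the targets, Hes1, a repressor that Notch induces in many tissues and that other signals also regulate, was detected on all 12 arrays. Its levels were 10.87, 10.91, 10.65 and 10.95 on the kidney arrays, 11.08, 11.16, 11.21 and 11.23 on the heart arrays, and 11.19, 11.35, 11.07 and 11.07 on the bone marrow arrays. Every kidney array was lower than every other array, with 10.95 against 11.07. Hes1 fell by 0.33 ± 0.09 in kidney minus bone marrow (0.797 times, limma adjusted p = 0.00395) and by the same 0.33 ± 0.09 in kidney minus heart (0.797 times, limma adjusted p = 0.00331). Heart and bone marrow cells differed by 0.00, with an interval of -0.18 to 0.18. The Hes1 calls were lost when arrays were scaled to a common median in place of quantile normalization. The changes were then -0.24 (adjusted p = 0.0864) and -0.26 (adjusted p = 0.052), and in raw signal the kidney arrays, 1925.8 to 2231.3, overlapped the bone marrow arrays, 1702.3 to 2599.7.

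Hey1, the second Hairy-related target, read 8.53, 8.46, 8.52 and 8.23 on the kidney arrays, 6.83, 6.63, 6.97 and 6.53 on the heart arrays, and 7.07, 6.69, 6.52 and 6.76 on the bone marrow arrays. The lowest kidney array was thus more than 1 log2 unit above the highest of the others, while heart and bone marrow arrays overlapped. Means were 8.44 ± 0.14, 6.74 ± 0.20 and 6.76 ± 0.23 in kidney, heart and bone marrow cells (SD, n = 4 each). Hey1 rose by 1.67 ± 0.15 in kidney minus bone marrow (interval 1.36 to 1.98, limma adjusted p = 1.63e-08), a larger absolute change than 96.4% of tested genes had in that comparison. It rose by 1.69 ± 0.15 in kidney minus heart, or 3.23-fold (interval 1.38 to 2.00, limma adjusted p = 1.05e-08). In heart minus bone marrow the difference was -0.02, with an interval of -0.33 to 0.29, and did not pass. Without background correction the change in Hey1 was 1.06 in kidney minus bone marrow and 1.07 in kidney minus heart, and both were still called.

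Hey2 at its brighter entry read 6.88, 7.27, 7.52 and 7.69 on the kidney arrays, against 5.0, 4.88, 4.94 and 4.98 on the heart arrays and 4.92, 4.95, 4.66 and 4.75 on the bone marrow arrays. All kidney arrays were above the detection floor of 5.53 to 5.69, and all heart and bone marrow arrays were below it. The second entry gave the same picture, with 6.62, 6.96, 6.83 and 6.67 on the kidney arrays, 5.05, 4.82, 4.75 and 4.71 on the heart arrays, and 4.75, 4.72, 4.54 and 4.64 on the bone marrow arrays. Because the dim groups were not well above background, a fold is given as a lower bound, which sets the kidney mean against the mean of the higher of each dim array's detection floor and its own value. By this bound Hey2 was at least 3.21-fold higher in kidney-derived cells than in bone marrow cells and at least 3.34-fold higher than in heart-derived cells. At the second entry Hey2 was at least 2.16-fold and at least 2.25-fold higher in the same comparisons. Both entries were called in both comparisons, the second in a fit of single entries, which called 39.2% and 43.8% of all entries. These calls belong to fitted differences and not to the bounds. Both entries passed the filter through their kidney arrays alone, so the calls were set in advance and their p-values are left out. Detection on all kidney arrays but on 0 of the heart and bone marrow arrays was found for 28 of 10797 genes, or 0.259%. Heyl, the third Hairy-related target, was undetected on all 12 arrays, with raw signal of 104.8 to 124 on kidney arrays, 102.1 to 119.9 on heart arrays and 106.9 to 121.1 on bone marrow arrays.

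**Figure D2:**
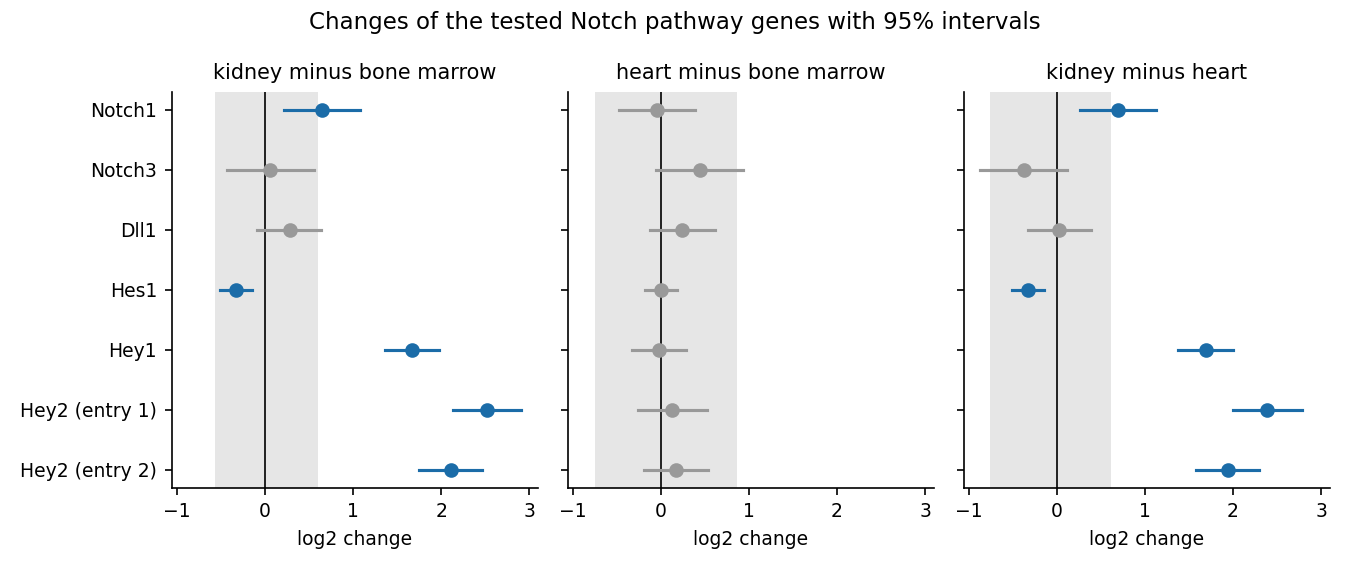
Log2 change of the 6 tested Notch genes in kidney minus bone marrow, heart minus bone marrow and kidney minus heart, with bars for 95% confidence intervals from limma, blue for called and grey for not called, both Hey2 entries, and a shaded band from the 10th to the 90th percentile of all tested genes. Hey1 lies at 1.67 and 1.69 in the kidney comparisons, and Hes1 lies slightly below 0 in both. The Hey2 points are fitted differences from arrays on which it was not well above background, so for Hey2 only the lower bounds in the text give a size.

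The genes whose profile over the 12 arrays was most like that of each Hey gene were found by the root mean square difference between profiles, each centred on its own mean. For Hey1 they were Nhsl1 (0.18 log2 units), Prrt4 (0.21) and Mmd (0.22). Nhsl1 averaged 8.87 in kidney, 7.13 in heart and 7.17 in bone marrow cells, a step of nearly the same height as that of Hey1. For Hey2 they were Tnfaip3, which encodes an inhibitor of NF-κB signalling (0.22), Sprr2g (0.24) and the homeobox gene Hoxb9 (0.26). Tnfaip3 averaged 9.17 in kidney, 6.46 in heart and 6.62 in bone marrow cells. The 2 Hey genes differed from each other by 0.46, with a Pearson r of 0.96 between their profiles. For the listed neighbours r was 0.967 to 0.985. The neighbours were picked as the closest of all tested genes, so their smaller differences do not show that the Hey genes are unlike. These 12 arrays come from only 3 tissues, and likeness of profile says nothing of shared function or control.

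**Figure D3:**
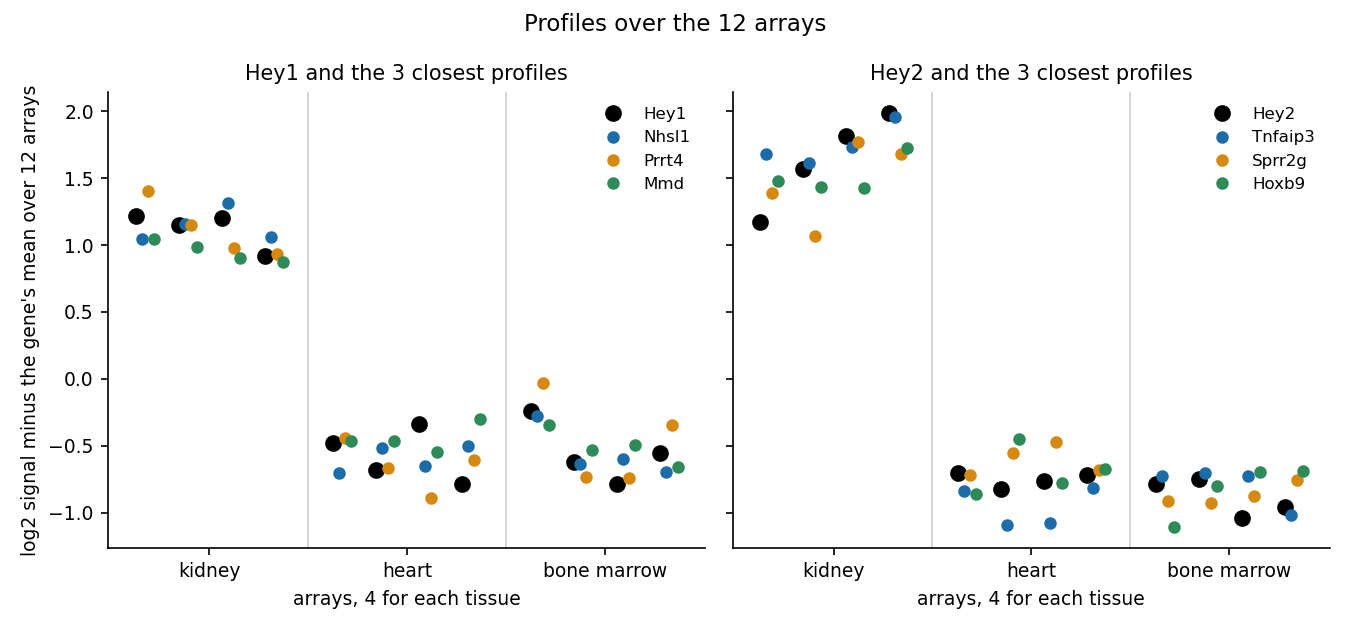
Centred log2 profiles of Hey1 and Hey2 and of the 3 genes most like each, over 12 arrays grouped by tissue, with points for single arrays. All of these genes are high on the 4 kidney arrays and low on the heart and bone marrow arrays.

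In cultures of this kind a change in the share of a cell type and a change in RNA per cell cannot be told apart. Markers of vessel cells also differed between the tissues. The counts of called markers below stand against all tested genes, of which 44.2% were called in kidney minus bone marrow. The shares were 56% in heart minus bone marrow and 49% in kidney minus heart. Of 14 endothelial markers, 3 were detected throughout kidney, 3 throughout heart and 2 throughout bone marrow. The summed signal of the list was 3802 to 4209 in kidney-derived cells, 1706 to 1932 in heart-derived cells and 1712 to 1972 in bone marrow cells. A summed signal mostly reflects the brightest genes of a list. The mean log2 signal of the list was 6.06 to 6.17, 5.70 to 5.88 and 5.57 to 5.78 in the same order. The endothelial genes Kdr, Vwf and Sox18 were on 0 arrays, Cdh5 on 1 kidney and 1 heart array, and Pecam1 on 2 kidney arrays and 1 bone marrow array. Flt1, a receptor for vascular growth factors, rose by 2.90 ± 0.10 in kidney minus bone marrow. Emcn, which encodes an endothelial sialoglycoprotein, was at least 7.96-fold higher in kidney-derived than in bone marrow cells and undetected on the heart and bone marrow arrays. In the other direction, Esam and Tek were detected on 0 kidney arrays. They were at least 1.51-fold and at least 1.39-fold lower in kidney-derived than in heart-derived cells. Of 5 endothelial markers tested, 2 rose in kidney minus bone marrow, 1 rose in heart minus bone marrow, and 3 rose and 2 fell in kidney minus heart. Emcn passed the filter through its kidney arrays alone and Esam through its heart arrays alone. Their calls in comparisons with that tissue were therefore set in advance. Tek passed without a kidney array, which favoured a lower value in kidney. Of 15 smooth muscle and pericyte markers, 12 were detected throughout kidney, 11 throughout heart and 9 throughout bone marrow, with summed signals of 122718 to 130809, 73349 to 77910 and 58266 to 65131. By mean log2 signal, 9.99 to 10.16, 9.28 to 9.45 and 7.91 to 8.12, heart lay nearer to kidney than to bone marrow. Of the 13 tested, 10 rose in kidney minus bone marrow, 11 rose and 1 fell in heart minus bone marrow, and 6 rose and 1 fell in kidney minus heart. Des, which encodes an intermediate filament of muscle, rose by 2.63 ± 0.12 in kidney minus heart, while Rgs5 and Abcc9, pericyte markers, were on 0 arrays. Of 3 epithelial markers tested, Krt8 and Krt19, keratins of simple epithelia, rose in kidney minus heart by 0.60 ± 0.22 and 0.80 ± 0.27. Their changes in kidney minus bone marrow, 0.10 and 0.52, did not pass. The summed signal of the epithelial list was 320 to 413 in kidney-derived, 171 to 298 in heart-derived and 244 to 473 in bone marrow cells. All 3 macrophage markers tested, Cd14, Csf1r and Lyz2, fell in kidney minus heart, where Cd14 fell by 1.11 ± 0.12, and Cd14 alone fell in kidney minus bone marrow. The summed macrophage signal was 404 to 475, 738 to 939 and 816 to 971 in kidney, heart and bone marrow cells, with Ptprc, Adgre1, Tyrobp and Itgam on 0 arrays. Ttn, the 1 cardiomyocyte marker tested, rose by 0.49 ± 0.20 in heart minus bone marrow and did not pass in the kidney comparisons. All 6 markers of dividing cells with an entry were higher in kidney minus heart, 5 were lower in kidney minus bone marrow and 6 were lower in heart minus bone marrow. The part of these cell types and of cell division in the Hey1, Hey2, Notch1 and Hes1 differences was not tested.

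The rest of the pathway was read from a list of 68 further genes, of which 61 had an entry, 46 were tested and 15 stayed below the detection filter. In kidney minus bone marrow 6 of 46 rose, 9 fell and 31 did not pass, with a median change of -0.04, equal to that of all genes. In heart minus bone marrow 13 rose, 9 fell and 24 did not pass, and in kidney minus heart 4 rose, 16 fell and 26 did not pass, with medians of 0.04 and -0.12. The shares called were 32.6%, 47.8% and 43.5%, against 44.2%, 56% and 49% of all genes in the same comparisons.

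**Figure D4:**
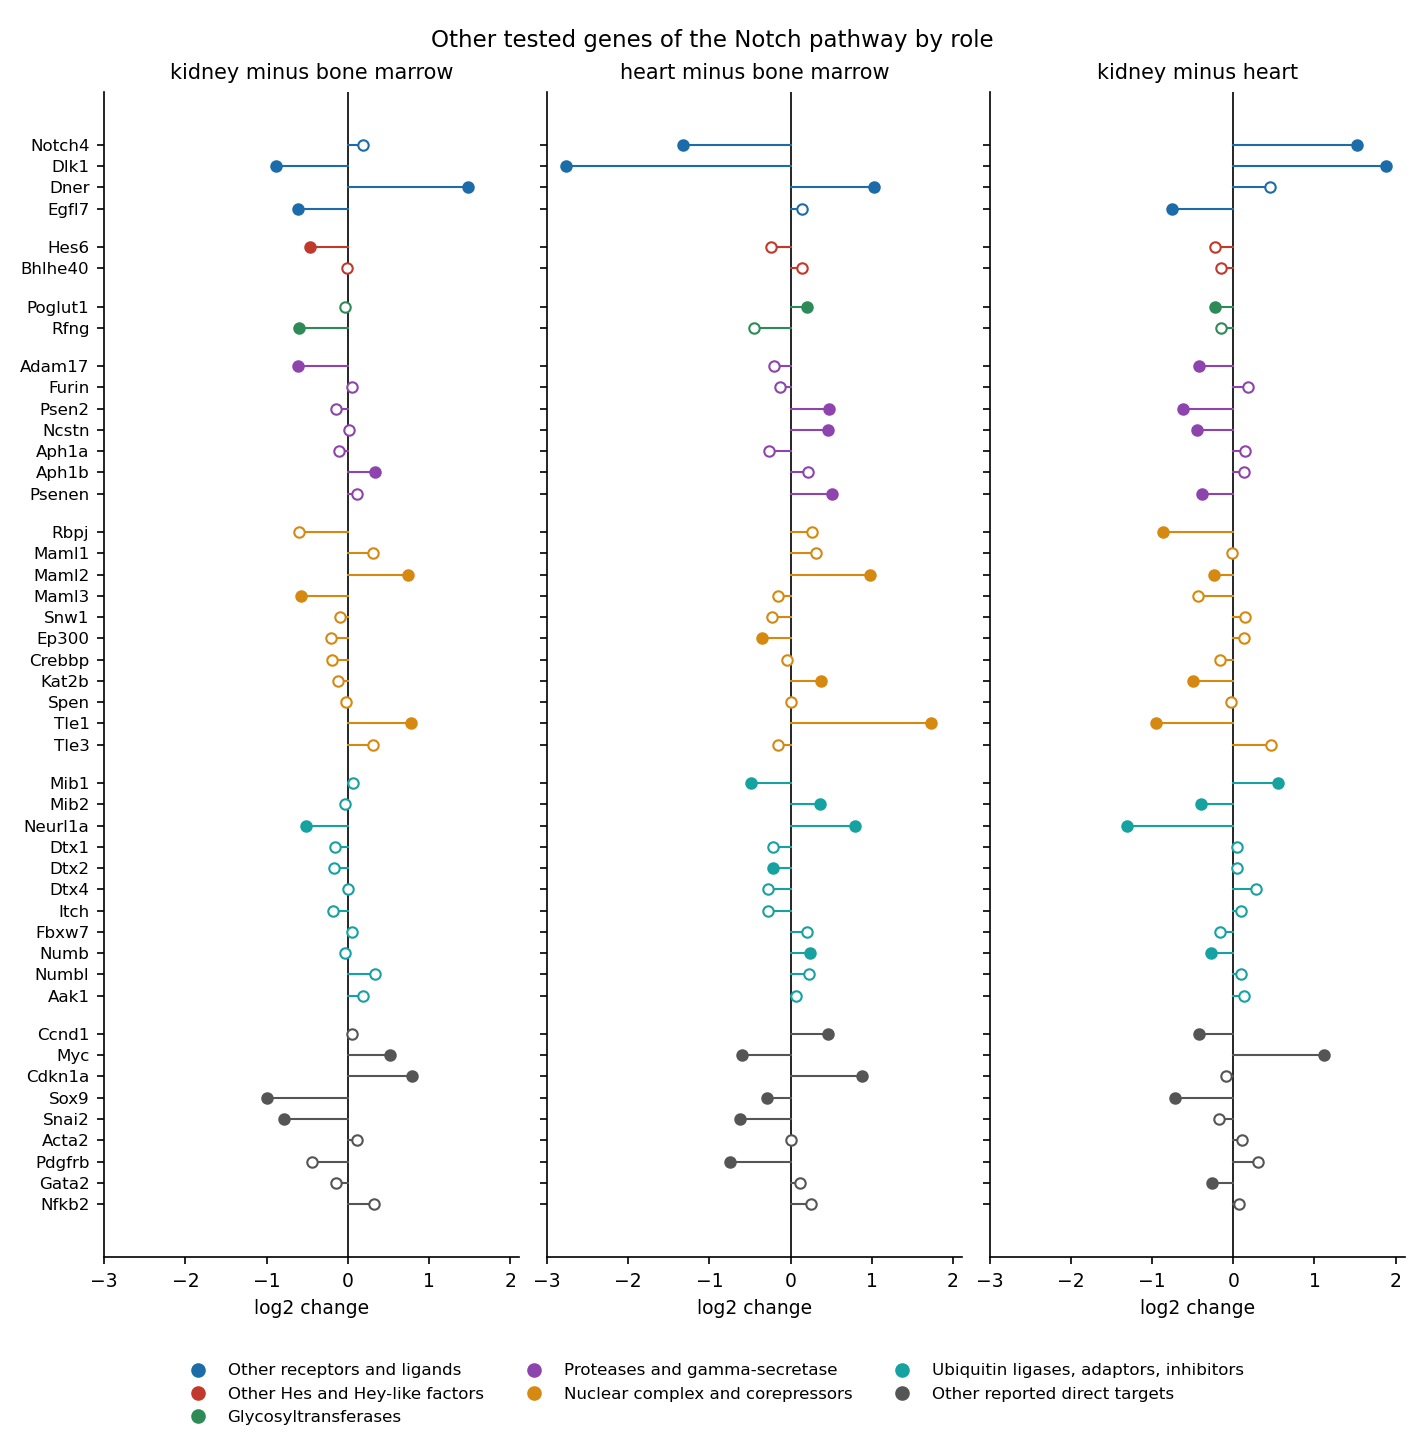
Log2 changes of the tested genes of the wider Notch pathway list, by role, in kidney minus bone marrow, heart minus bone marrow and kidney minus heart, with a point for each gene, filled where the adjusted p was under 0.05 and open otherwise. Dlk1 and Notch4 are low in heart-derived cells, and Tle1 and Neurl1a are highest there.

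Among other receptors and ligands, Dlk1, a membrane protein related to Notch ligands that is known for holding back fat cell formation, fell by 2.77 ± 0.09 in heart minus bone marrow (limma adjusted p = 1.1e-15). Its means were 13.60 in kidney, 11.72 in heart and 14.49 in bone marrow cells. Notch4, a receptor known from endothelial cells, averaged 9.27 ± 0.21 in kidney, 7.75 ± 0.15 in heart and 9.08 ± 0.13 in bone marrow cells, and so fell by 1.33 ± 0.12 in heart minus bone marrow (limma adjusted p = 1.21e-08). In kidney minus bone marrow Notch4 differed by 0.19 ± 0.12 and did not pass (limma adjusted p = 0.212). Dner, a neural ligand, rose by 1.48 ± 0.21 in kidney minus bone marrow and by 1.03 ± 0.21 in heart minus bone marrow, and was detected on 2 of the bone marrow arrays.

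Among the nuclear factors, Tle1, a corepressor that Hes proteins recruit, rose by 1.73 ± 0.08 in heart minus bone marrow (limma adjusted p = 1.67e-13) and by 0.78 ± 0.08 in kidney minus bone marrow. Rbpj, named here after its values were seen as the DNA-binding partner of Notch, had 1 of its 3 entries pass the filter. That entry was detected on 0 kidney, 3 heart and 3 bone marrow arrays, and any entry of the gene on 1, 3 and 3. It averaged 5.28 ± 0.33, 6.14 ± 0.51 and 5.88 ± 0.48. The entry passed the filter through its heart and bone marrow arrays alone, which favoured a lower value in kidney. In kidney minus heart the fitted difference was called (limma adjusted p = 0.011), with overlapping arrays. The heart mean was 1.46 times the level of the kidney arrays' detection floors, a value whose sampling error was not estimated. In kidney minus bone marrow Rbpj did not pass (limma adjusted p = 0.0751), also with overlapping arrays. Of 7 tested proteases and gamma-secretase genes, which cut the receptor, 1 rose and 1 fell in kidney minus bone marrow, 3 rose and 0 fell in heart minus bone marrow, and 0 rose and 4 fell in kidney minus heart. The shares called were 28.6%, 42.9% and 57.1%, against 44.2%, 56% and 49% of all tested genes. The 4 that fell in kidney minus heart, by 0.38 to 0.62, were Adam17, Psen2, Ncstn and Psenen (named after their values were seen).

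Neurl1a, a ubiquitin ligase that acts on Notch ligands, fell by 1.31 ± 0.12 in kidney minus heart (limma adjusted p = 1.58e-08). Of 9 other reported target genes, 2 rose and 2 fell in kidney minus bone marrow, 2 rose and 4 fell in heart minus bone marrow, and 1 rose and 3 fell in kidney minus heart. The shares called, 44.4%, 66.7% and 44.4%, stand against 44.2%, 56% and 49% of all tested genes. Myc, a growth regulator, rose by 1.12 ± 0.14 in kidney minus heart. Sox9, a factor of cartilage formation, fell by 1.00 ± 0.08 in kidney minus bone marrow (limma adjusted p = 7.42e-09). Undetected on every array were Dll3, Hes2, Hes3, Hes5, Helt, Bhlhe41, Lfng, Mfng, Adam10, Aph1c, Ctbp1 and Nrarp, which include the classical target Hes5 and the feedback inhibitor Nrarp.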

How the data were processed

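Total RNA from 12 samples was labelled with biotin and hybridised to single-colour bead arrays, per the labels' protocols. The deposited raw table gives intensity per probe without normalization, per the file headers, together with a value headed as a detection p-value that rises with signal and was read as 1 minus that p-value. Its 45281 entries share 35746 identifiers, and each entry was kept as its own probe. The authors' processed intensity table, made with lumi per the submitters' processing notes, served as an alternative. What its background step subtracted is unknown, its array medians are 18.8 to 19.0, and its ranks match the raw signal.

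Normalization used limma 3.58.1 under R 4.3.3 (neqc with detection p-values, offset 16, quantile normalization, log2). Entries detected (value over 0.95) on at least 4 of 12 arrays were kept, and the brightest stood for its gene, giving 10797 genes. The model (lmFit, then eBayes with a trend) held a mean per tissue over the 12 arrays. Tests were two-sided, with a gene called at an adjusted p (Benjamini-Hochberg) under 0.05. Gene names came from the platform annotation, which pairs 26385 identifiers with 1 symbol and 18 with several, and does not list 9343. Samples were not paired by replicate number in the model, since the labels name no pairing. The 12 same-number pairs correlated at -0.203 to 0.133, which cannot exclude a shared animal or day. Slides and scan dates are not stated in the labels or headers used. The fit was tested on simulated data.

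The members and gene lists were chosen with earlier results of these data known. Named were all members, pathway genes past the threshold with a log2 change of at least 1 or undetected everywhere, listed markers, and the 3 genes most like each member that spans at least 1 log2 unit. Other names are said to be chosen later. The alternatives changed background correction, scaling, filter, probe choice, fit and arrays.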

Additional observations from a re-analysis of the deposited data

Results flagged for a closer look

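In 36 groups of 4 arrays, 1 array lay far from the other 3 in 3 groups, by Dixon's 95% limit on the gap to the nearest array divided by the group's range. Chance gives about 1 in 20 groups. Dll1 read 6.07 on heart replicate 1, against 6.59 to 6.69 on the other heart arrays (gap over range 0.844). Jag2 read 5.44 on kidney replicate 4, against 5.06 to 5.11 on the other kidney arrays (0.869). Heyl read 4.59 on kidney replicate 2, against 4.78 to 4.79 (0.938). Both genes were undetected on every array.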

How the results depend on the processing

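Counts of called genes among the 6 Notch genes tested were 4, 0 and 4 in kidney minus bone marrow, heart minus bone marrow and kidney minus heart. They stayed at that value without background correction, with an offset of 50, with the authors' deposited values and without a detection filter. The same held with a gene's probes averaged and without a variance trend. Without a filter Jag1, outside these 6, was also called in kidney minus bone marrow (limma adjusted p = 0.000392) and kidney minus heart (0.00019). Most of its arrays were undetected, and that fit called 24.3% and 27% of all genes. Counts for the 6 were 3, 0 and 3 with median scaling, where Hes1 was at -0.24 in kidney minus bone marrow and -0.26 in kidney minus heart. They were also 3, 0 and 3 when only probes detected on all 12 arrays were kept, which removes Hey2. Median scaling also moved the share of calls over all genes that were higher in kidney minus bone marrow to 60.6%, against 45.1%. Fits of only the 2 tissues compared gave 4, 0 and 5, with Notch3 at -0.37 in kidney minus heart (adjusted p = 0.0499). With the replicate number as a block the counts were again 4, 0 and 4. In 5 of 12 same-number pairs of arrays from 2 tissues, the correlation exceeded that with every other number. Leaving out each array gave 3 to 4, 0 to 1 and 3 to 4. The count of 3 arose without a kidney array, when Hey2 failed the filter, and the count of 1 without bone marrow replicate 4, when Notch3 passed at 0.68. With detection on at least 3 arrays, chosen after seeing the data, the counts without each kidney array were 4, 0 and 4. Of the called changes, 0 changed sign. Some changes that did not pass did: over the arrays left out, Notch3 in kidney minus bone marrow ranged from -0.14 to 0.31, Dll1 in kidney minus heart from -0.11 to 0.09, and in heart minus bone marrow Notch1 from -0.19 to 0.15 and Hey1 from -0.10 to 0.09. With median scaling Notch1 and Hey1 were at 0.08 and 0.13 in heart minus bone marrow. No slide block was run. Low signal limits Notch2, Jag1, Jag2 and Heyl.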
